A study of Mus musculus with 4 samples.

Results

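The axon guidance ligands and receptors were taken as every gene in the count tables whose symbol belonged to 1 of 4 signalling systems: the semaphorins with their plexin and neuropilin receptors, the ephrins with the Eph receptors, the Slits with the Robo receptors, and the netrins with Dcc and the Unc5 receptors. The symbols alone chose the members and no measured value entered the rule, although earlier results of these data were known. This gave 69 genes of 23420, made up of 35 ligands and 34 receptors, and 66 of them had at least 10 counts in at least 2 libraries and were tested. The study set wild type (WT) cervical motor neurons (MNs) against MNs that lacked *Patz1*, a gene for a BTB/POZ zinc finger protein that binds DNA, in order to ask what loss of this factor does to the transcriptome. Both groups were E14 mouse embryonic stem cells grown as embryoid bodies and patterned with 1 µM retinoic acid and 0.5 µM smoothened agonist, and each group had 2 RNA-seq libraries. The *Patz1* -/- genotype (*Patz1* KO) was made in the same line with CRISPR/Cas9, and which of the study's KO lines stood behind each of the KO libraries was not given in the sources used here. The culture was measured in bulk and without a sort for MNs, so other cells of the embryoid bodies contributed RNA.

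Axon guidance molecules steer the growth cone, the moving tip of a growing axon, by attracting or repelling it. Semaphorins bind plexins, with a neuropilin as co-receptor for most secreted semaphorins. Ephrins are anchored in the membrane and bind Eph receptor tyrosine kinases on touching cells, and the pair can signal into both cells. Slits released at the ventral midline of the spinal cord repel axons through Robo receptors, while netrin-1 attracts axons through Dcc and repels them through Unc5 receptors. Spinal MNs use these systems to leave the cord, to choose between dorsal and ventral paths in the limb and to keep away from the midline.

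The libraries held 14769104 and 15728158 counts in WT and 23881522 and 17402342 counts in *Patz1* KO, and the members together took 0.479 to 0.562% of them. *Patz1* itself was counted 1363 and 1499 times in WT and 1154 and 714 times in KO, which came to 92.9 ± 1.96 against 45.1 ± 3.58 CPM (mean ± SD, n = 2 each). Transcripts of the gene were still counted in the KO libraries (log2 fold change -1.04). The MN genes *Mnx1*, *Isl1*, *Chat* and *Slc18a3* were counted in all 4 libraries. The titles of the samples carry the label ESC, whereas their source and cell type name MNs. Of 14394 genes tested, 47.4% were called, 24.0% higher and 23.4% lower in KO, so a call by itself set no gene apart. CPM, counts relative to library size, used TMM scaling (the trimmed mean of M values), and a gene was called where the p of edgeR's quasi-likelihood test, after Benjamini-Hochberg adjustment over all genes tested, was below 0.05. An exact permutation test for 1 gene, with 2 libraries against 2, has a smallest p of 0.333, so these p-values rest on the spread shared across genes.

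Of the 66 members tested, 18 were higher in *Patz1* KO (27.3%), 12 were lower (18.2%) and 36 were not called. In all 45.5% of the members were called, close to the share of all genes. The members' median log2 fold change was 0.014, against -0.0014 for all genes tested. The size of the changes was unequal in the 2 directions. At least 1 on the log2 scale was reached by 9 members that rose (13.6%, against 5.70% of all genes) and by 0 that fell (against 7.08% of all genes). The 9 were *Sema3b*, *Sema6b*, *Sema4f*, *Sema7a*, *Epha6*, *Ephb6*, *Efna3*, *Sema3c* and *Plxna1*, and 6 of them encode semaphorins or a plexin. With 1 library left out, the log2 fold change fell as low as 0.887 for *Plxna1*, 0.915 for *Sema3c* and 0.938 for *Epha6*. It fell as low as 0.957 for *Efna3* and 0.960 for *Ephb6*. Among members called lower, *Robo2* reached -1.02 and *Epha3* -1.04 in such fits, so the counts of 9 and 0 depend on the limit. Both KO libraries lay on one side of both WT libraries in 42 of the 66 members, 23 above and 19 below, and in 73.9% of all genes tested. All 30 called members were among them. In bulk RNA, fewer cells of a type and less RNA per cell cannot be told apart, which holds for each value that follows.

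**Figure D1:**
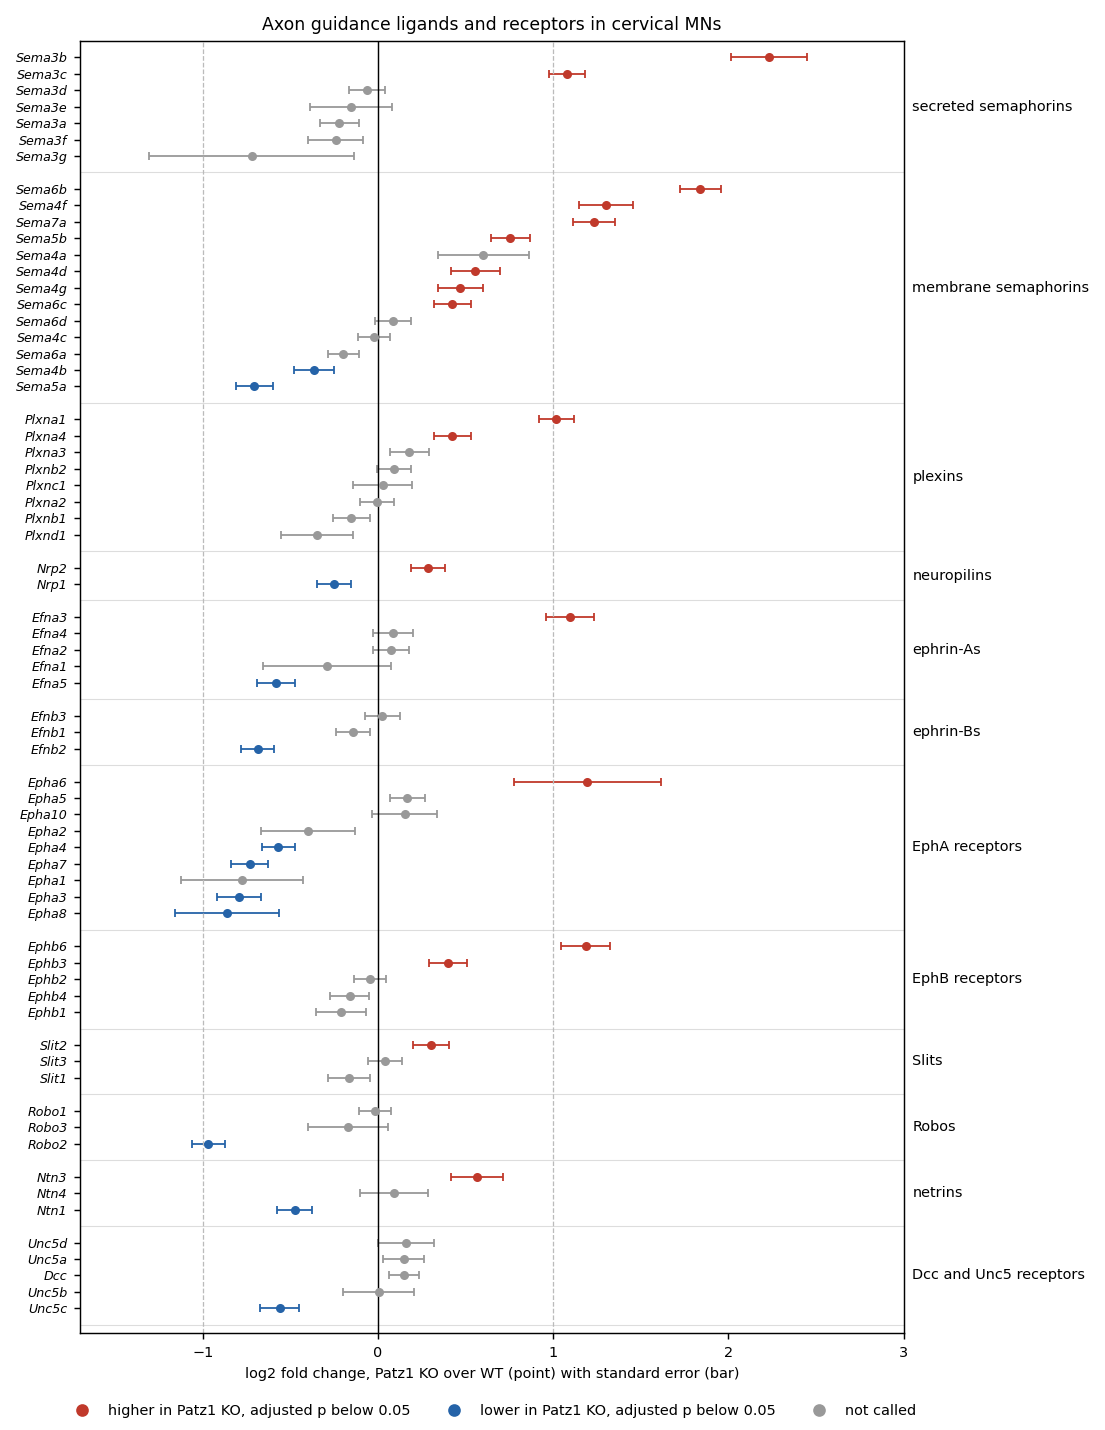
The log2 fold change of each tested member, *Patz1* KO over WT, is drawn as a point with its standard error as a bar, grouped by family and coloured by call. The 9 points at or beyond 1 lie on the right, led by *Sema3b* at 2.23, and the lowest point is *Robo2* at -0.97.

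**Figure D2:**
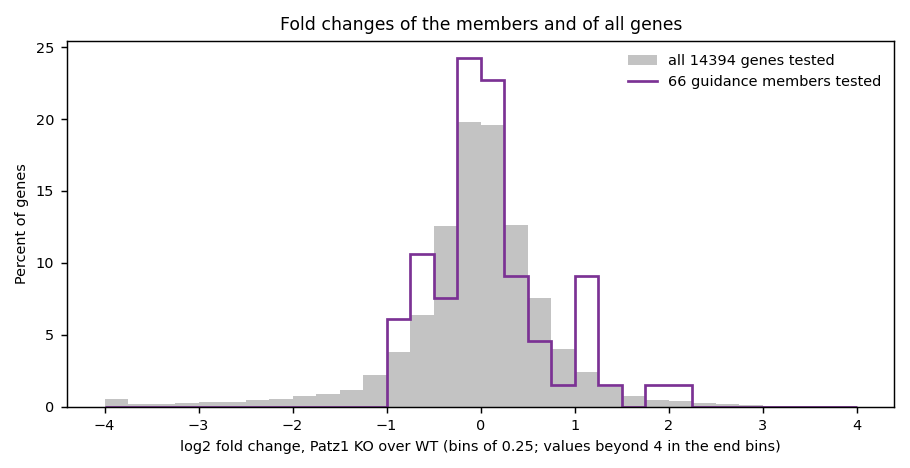
The percent of genes in bins of log2 fold change is shown for the 66 members and for all 14394 genes tested. Both centre near 0, with medians of 0.014 and -0.0014, and the members have no call at or below -1.

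Promoter sequence was examined because the PATZ1 motif is described as resembling the G-rich motif of MAZ, a related zinc finger protein. GGGAGGG, or CCCTCCC on the other strand, was searched in the 250 bases upstream of each RefSeq transcript start (build GRCm38.p6). These letters occurred in 6468 of 32851 windows of all genes (19.7%) and in 29 of the 75 windows of the members (38.7%). The windows of all genes include genes that were not tested, and they were not matched to the members in GC content. In the members' windows GC content ran from 40.8 to 84%. The shares are therefore not like for like, and their difference was not tested. A window was found for 59 of the 69 members. At least 1 window held a match in 6 of 15 members that rose, in 5 of 11 that fell and in 11 of 30 that were not called. The same held for 3 of 3 that were not tested. The windows of *Sema6b*, *Sema7a* and *Efna3* are printed because these 3 genes rose by at least 1 on the log2 scale, were above 10 CPM in every library and had a match. *Sema6b* and *Efna3* each have another window (chr17:56133853-56134102 and chr3:89322940-89323189), which held no match. Capitals mark the match, and the sequences run 5′ to 3′ on the strand of the gene up to the base before the start. The match begins at position -110 in *Sema6b* (chr17:56140344-56140593, minus strand), at -76 in *Sema7a* (chr9:57939862-57940111, plus strand) and at -132 in *Efna3* (chr3:89321769-89322018, minus strand).
Sema6b: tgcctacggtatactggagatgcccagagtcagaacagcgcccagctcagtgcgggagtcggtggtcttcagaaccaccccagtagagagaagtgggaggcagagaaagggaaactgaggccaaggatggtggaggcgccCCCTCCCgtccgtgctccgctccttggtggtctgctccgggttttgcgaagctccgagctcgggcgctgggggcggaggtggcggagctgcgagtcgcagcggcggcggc
Sema7a: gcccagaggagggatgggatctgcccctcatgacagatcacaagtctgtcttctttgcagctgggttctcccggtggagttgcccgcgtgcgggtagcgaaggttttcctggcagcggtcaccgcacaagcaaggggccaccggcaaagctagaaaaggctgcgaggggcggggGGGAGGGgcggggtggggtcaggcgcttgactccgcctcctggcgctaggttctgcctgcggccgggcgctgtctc
Efna3: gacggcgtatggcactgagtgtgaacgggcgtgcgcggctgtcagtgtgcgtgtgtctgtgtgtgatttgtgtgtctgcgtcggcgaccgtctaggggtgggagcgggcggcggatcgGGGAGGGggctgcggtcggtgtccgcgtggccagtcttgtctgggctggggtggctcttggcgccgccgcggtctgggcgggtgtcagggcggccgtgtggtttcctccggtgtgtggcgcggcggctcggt
The windows of *Sema3c*, *Ephb6* and *Sema4f*, which rose as well, held no match. No binding data were used here, and a match describes the letters only.

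Among the secreted class 3 semaphorins, 2 of 7 rose and 0 fell, where 24.0% of all genes rose and 23.4% fell. *Sema3b* (chr9:107597674-107609229, minus strand, GRCm38), whose product is a repellent for several axon types and binds neuropilins, had the largest relative change of all members. It stood at 2.75 and 2.01 CPM in WT and at 10.6 and 11.9 CPM in KO, with both KO libraries far above both WT libraries. The means were 2.38 ± 0.523 and 11.2 ± 0.917 CPM (SD, n = 2), a 4.70-fold difference (log2 fold change 2.23, SE 0.22, edgeR adjusted p = 2.19e-07). Its WT values rest on 41 and 32 counts. *Sema3c* (chr5:17574281-17730268, plus strand), a secreted semaphorin known for guiding cardiac neural crest and cortical axons, was the highest of its class per kb of exon. Its values were 87.96 and 91.7 CPM in WT and 209 and 169 CPM in KO, so it rose from 89.8 ± 2.65 to 189 ± 28.3 CPM (log2 fold change 1.08, SE 0.10, edgeR adjusted p = 1.28e-07). The KO libraries differed from each other by more than the WT libraries did, yet the groups did not overlap. *Sema3a*, the semaphorin that collapses sensory and motor growth cones through Nrp1, was not called (log2 fold change -0.22, edgeR adjusted p = 0.109). *Sema3d*, *Sema3e*, *Sema3f* and *Sema3g* were not called either, and *Sema3g* was under 1 CPM in every library. The summed level of the class was 24.5 CPM per kb in each WT library and 41.8 and 36.7 CPM per kb in KO, a ratio of 1.60, carried by *Sema3c*.

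Among the 13 transmembrane and membrane-anchored semaphorins, 7 rose, 2 fell and 4 were not called (all genes: 24.0% rose and 23.4% fell). *Sema6b* (chr17:56123085-56140343, minus strand), a class 6 semaphorin that binds class A plexins, was measured at 10.9 and 11.6 CPM in WT and at 40.1 and 40.8 CPM in KO. Replicates of each group lay close together and the groups were well apart. It rose 3.58-fold, from 11.3 ± 0.489 to 40.4 ± 0.538 CPM (log2 fold change 1.84, SE 0.12, edgeR adjusted p = 9.15e-10). *Sema4f* (chr6:82911885-82939769, minus strand), a class 4 semaphorin found at synapses, was at 9.74 and 7.99 CPM in WT and at 24.0 and 19.4 CPM in KO (log2 fold change 1.30, SE 0.15, edgeR adjusted p = 1.90e-06). *Sema7a* (chr9:57940112-57962865, plus strand) is the only semaphorin held to the membrane by a GPI anchor and promotes axon growth through integrins. It was at 19.2 and 15.2 CPM in WT and at 40.0 and 40.9 CPM in KO (log2 fold change 1.23, SE 0.12, edgeR adjusted p = 2.17e-07). The smaller rises were *Sema5b* (log2 fold change 0.75), *Sema4d* (0.56), *Sema4g* (0.47) and *Sema6c* (0.43). Calls for the last 3 were lost without 1 WT library: *Sema4d* (edgeR adjusted p = 0.0692) and *Sema6c* (0.0889) without WT replicate 2 and *Sema4g* (0.111) without WT replicate 1.

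*Sema5a*, which carries thrombospondin repeats and can attract or repel axons, moved against its close relative *Sema5b*. It was at 39.2 and 38.9 CPM in WT and at 24.9 and 22.9 CPM in KO, and it fell by 0.71 on the log2 scale (edgeR adjusted p = 2.72e-05). *Sema5b* was at 33.4 and 29.6 CPM in WT and at 57.9 and 48.0 CPM in KO. Neither gene's groups overlapped, and the pair moved in opposite directions. *Sema4b* was the other that fell, from 30.4 and 27.6 CPM to 23.8 and 21.1 CPM (log2 fold change -0.36, edgeR adjusted p = 0.0149), and its call was lost without WT replicate 1 (adjusted p = 0.185). *Sema4c*, the highest of this class per kb of exon, was at 65.7 and 61.3 CPM in WT and at 61.8 and 63.2 CPM in KO, with overlapping groups (log2 fold change -0.02). *Sema4a* (log2 fold change 0.60) and *Sema6d* (0.09) were not called, nor was *Sema6a*. *Sema6a*, which signals from boundary cap cells at MN exit points, was at 94.3 and 94.6 CPM in WT and at 83.3 and 81.5 CPM in KO (edgeR adjusted p = 0.0714). The summed level of the 13 was 64.9 and 59.4 CPM per kb in WT and 85.1 and 80.7 CPM per kb in KO.

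**Figure D3:**
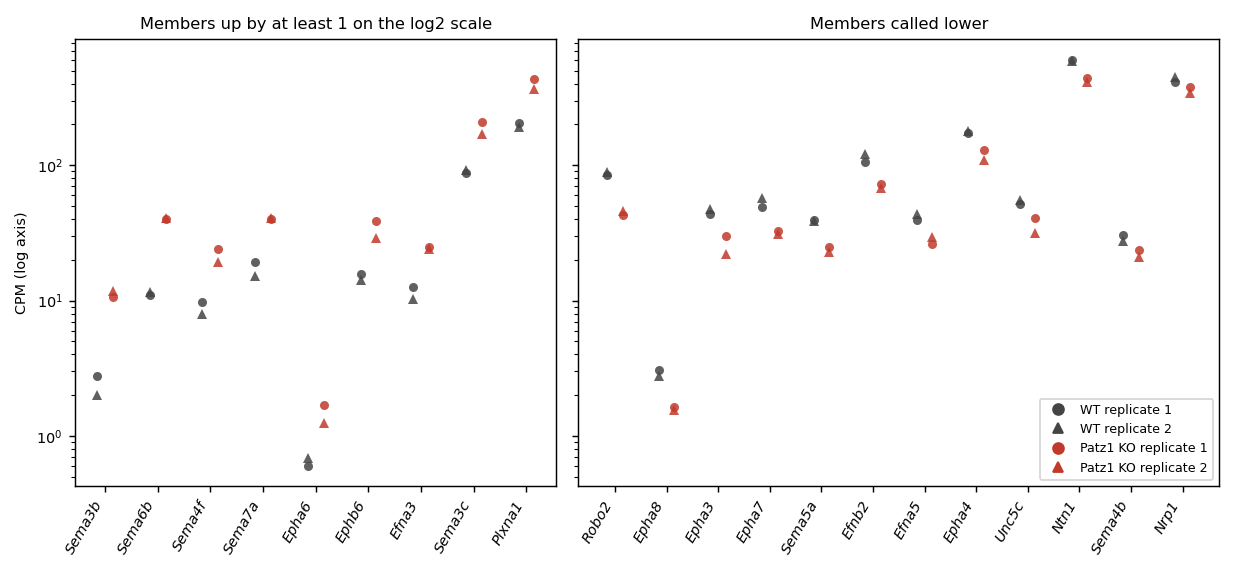
CPM in each of the 4 libraries is plotted on a log axis for the 9 members that rose by at least 1 on the log2 scale and for the 12 that fell, WT and *Patz1* KO in different colours. In all 21 genes the KO points lie on one side of the WT points, with the narrowest gaps at *Nrp1* and *Sema4b*.

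Of the semaphorin receptors, 2 of 8 tested plexins rose and 0 fell (all genes: 24.0% rose and 23.4% fell). *Plxna1* (chr6:89316314-89362620, minus strand), a co-receptor with neuropilins for class 3 semaphorins, was at 205 and 192 CPM in WT and at 436 and 367 CPM in KO. It rose 2.02-fold (log2 fold change 1.02, SE 0.10, edgeR adjusted p = 2.47e-07), and it was the plexin with the highest level per kb of exon. *Plxna4*, which pairs with Nrp1 in the response to Sema3A, rose by less, from 61.6 and 63.7 CPM to 93.6 and 74.1 CPM (log2 fold change 0.42, edgeR adjusted p = 0.00312). An antisense gene overlaps each of them (*Gm26811* and *Plxna4os3*), and whether the counting used strand was not given in the sources used here. *Plxna2* and *Plxna3*, their closest relatives, were not called, nor were *Plxnb1*, *Plxnb2*, *Plxnc1* and *Plxnd1*. *Plxnc1*, the receptor for Sema7A, was at 20.8 and 22.8 CPM in WT and at 27.4 and 16.5 CPM in KO, so the KO libraries fell on both sides of WT. *Plxnb3* was not tested, with 5 and 0 counts (WT) and 1 and 2 counts (KO). *Plxnd1*, a plexin of vessels and some neurons, was at 9.33 and 6.86 CPM in WT and at 6.97 and 5.60 CPM in KO. A list of 10 endothelial markers summed to 14.3 to 17.5 CPM in WT and 5.84 to 8.33 CPM in KO, with 5 of 9 tested lower, 0 higher and none at 0 in all libraries, and their part in these values was not tested.

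The neuropilins moved in opposite directions by small amounts. *Nrp1*, the co-receptor through which Sema3A repels motor axons, had the higher level per kb of the pair. It was at 413 and 444 CPM in WT and at 378 and 343 CPM in KO (log2 fold change -0.25, SE 0.098, edgeR adjusted p = 0.0438). *Nrp2*, the co-receptor with more affinity for Sema3F, was at 180.2 and 179 CPM in WT and at 242 and 196 CPM in KO (log2 fold change 0.29, SE 0.099, edgeR adjusted p = 0.0242). Both calls depended on single libraries. That of *Nrp1* was lost without WT replicate 1 (adjusted p = 0.160), WT replicate 2 (0.424) or KO replicate 2 (0.0511). That of *Nrp2* was lost without WT replicate 1 (0.134), WT replicate 2 (0.138) or KO replicate 1 (0.185).

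Of the 8 ephrins tested, 1 rose and 2 fell (all genes: 24.0% rose and 23.4% fell). *Efna3* (chr3:89313899-89322965, minus strand), a GPI-anchored ephrin-A, was at 12.6 and 10.3 CPM in WT and at 24.9 and 23.8 CPM in KO, more than doubling without overlap (log2 fold change 1.10, SE 0.14, edgeR adjusted p = 3.31e-06). The antisense gene *Gm15998* overlaps it, with the same limit on strand as for *Plxna1*. *Efna5*, an ephrin-A that repels EphA4-bearing motor axons in the limb, went the other way, from 39.5 and 43.3 CPM to 26.2 and 29.3 CPM (log2 fold change -0.58, SE 0.11, edgeR adjusted p = 0.000219). The ephrin-A sum was therefore nearly level, at 44.8 and 45.7 CPM per kb in WT and at 48.3 and 49.2 CPM per kb in KO. *Efna4* was the highest ephrin-A per kb of exon, at 24.0 and 24.2 CPM in WT and 24.7 and 26.5 CPM in KO, and was not called, nor were *Efna1*, which was under 2 CPM in every library, and *Efna2*. *Efnb2*, a transmembrane ephrin of neurons, somites and arteries, was at 106 and 121 CPM in WT and at 72.4 and 68.4 CPM in KO (log2 fold change -0.69, SE 0.094, edgeR adjusted p = 1.02e-05). It was the highest ephrin-B per kb of exon, and *Efnb1* and *Efnb3* were not called. Markers of mesenchyme and neural crest, cells that also carry ephrin-Bs, summed to 264 to 285 CPM in WT and 118 to 119 CPM in KO. Of the 15, 11 were lower, 2 were higher and none was at 0 in all libraries. *Col3a1*, the most abundant of them in WT, went from 91.3 and 98.3 CPM to 9.12 and 11.1 CPM. The 2 higher were *Foxd3* (log2 fold change 2.51) and *Sox9* (0.53), so the list, which pools both cell types, did not move as 1. The part of these cells in the fall of *Efnb2* was not tested.

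Among the 9 EphA genes 4 fell, 1 rose and 4 were not called. Among the 5 EphB genes 2 rose, 0 fell and 3 were not called. Over all genes the shares were 24.0% higher and 23.4% lower, and the difference between the classes was not tested. *Epha4*, the receptor that sends lateral motor column axons into the dorsal limb, had the highest level per kb of exon in its class. It was at 173 and 180.2 CPM in WT and at 129 and 109 CPM in KO (log2 fold change -0.57, SE 0.094, edgeR adjusted p = 7.92e-05), and its groups did not overlap. *Epha3*, present in medial motor column axons, was at 43.2 and 47.1 CPM in WT and at 29.7 and 22.0 CPM in KO (log2 fold change -0.79, edgeR adjusted p = 4.60e-05). *Epha7* was at 48.9 and 57.3 CPM in WT and at 32.8 and 31.1 CPM in KO (log2 fold change -0.73, edgeR adjusted p = 1.67e-05). These 3 falls held without any 1 library. *Epha8* was low, at 46 and 44 counts in WT and 40 and 26 in KO (log2 fold change -0.86, edgeR adjusted p = 0.0227), and its call was lost without WT replicate 1 (adjusted p = 0.161) or WT replicate 2 (0.0892). *Epha5* was not called (50.0 and 53.4 CPM in WT, 61.4 and 54.6 CPM in KO), nor were *Epha1*, *Epha2* and *Epha10*. The summed EphA level was 37.9 and 39.9 CPM per kb in WT and 29.5 and 25.3 CPM per kb in KO, a ratio of 0.703, the lowest of the 12 families.

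*Epha6* (chr16:59653483-60605531, minus strand) was the EphA gene that rose. It was counted 9 and 11 times in WT against 41 and 21 times in KO. Its exons overlap *Gm9017* on the other strand, with the same limit on strand as for *Plxna1*. Its log2 fold change of 1.20 (SE 0.42, edgeR adjusted p = 0.0260) is the least certain of the 9. The call was lost without WT replicate 1 (adjusted p = 0.159), WT replicate 2 (0.114) or KO replicate 1 (0.130), and in DESeq2's Wald test (0.142). *Ephb6* (chr6:41605482-41620509, plus strand), an Eph receptor without kinase activity, was at 15.6 and 14.2 CPM in WT and at 38.4 and 29.0 CPM in KO (log2 fold change 1.18, SE 0.14, edgeR adjusted p = 1.66e-06), and both KO libraries were well above both WT libraries. *Ephb3* was at 31.5 and 29.7 CPM in WT and at 43.4 and 37.0 CPM in KO (log2 fold change 0.40, edgeR adjusted p = 0.00565), a call lost without WT replicate 2 (0.0723). *Ephb2*, a receptor through which ephrin-Bs repel axons, was the highest EphB per kb of exon. It was at 142 and 139 CPM in WT and at 146 and 126 CPM in KO and was not called (log2 fold change -0.04). *Ephb1* and *Ephb4* were not called either.

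In the Slit and Robo system 1 of 3 ligands rose and 1 of 3 tested receptors fell (all genes: 24.0% rose and 23.4% fell). *Slit2*, a midline repellent that MNs also express, had the highest level per kb of exon among the Slits. It was at 745 and 741 CPM in WT and at 915 and 918 CPM in KO (log2 fold change 0.30, SE 0.10, edgeR adjusted p = 0.0235). The replicates nearly coincided, yet the call was lost without WT replicate 1 (adjusted p = 0.218) or WT replicate 2 (0.239). *Slit1* was at 106 and 100.3 CPM in WT and at 107 and 76.3 CPM in KO and was not called, nor was *Slit3*. *Robo2* (chr16:73891839-74411825, minus strand), a Slit receptor of commissural and motor axons, showed the largest fall of all 66 members. It was at 85.3 and 88.5 CPM in WT and at 42.8 and 46.1 CPM in KO, a drop to nearly the same level in both KO libraries (log2 fold change -0.97, SE 0.094, edgeR adjusted p = 1.90e-07). *Robo1*, which shares the Slit ligands with it, was at 202 and 196 CPM in WT and at 207 and 186 CPM in KO (log2 fold change -0.02, edgeR adjusted p = 0.888). *Robo3*, the receptor of commissural axons before crossing, was at 3.75 to 5.51 CPM in the 4 libraries and was not called. *Robo4*, the Robo of endothelium, had 5 to 11 counts a library and was not tested.

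*Ntn1* (chr11:68209364-68400823, minus strand), the netrin made by the floor plate and by ventral progenitors, had the highest level per kb of exon of all members, 81.5 CPM per kb over the 4 libraries. It was at 601 and 590.1 CPM in WT and at 442 and 414 CPM in KO (log2 fold change -0.48, SE 0.099, edgeR adjusted p = 0.000674). Both KO libraries were below both WT libraries, and the call held without any 1 library. Floor plate markers moved with it. The list of 9 summed to 297 to 302 CPM in WT and 153 to 194 CPM in KO, with 7 of 8 tested lower and 0 higher. *Shh*, the floor plate morphogen, fell by 2.99 on the log2 scale and *Foxa2*, its regulator there, fell by 2.35. Both were still counted in every KO library (*Shh* at 118 and 80 counts, *Foxa2* at 125 and 100). Markers of ventral progenitors summed to 828 to 853 CPM in WT and 686 to 715 CPM in KO, although 6 of the 10 tested were higher and 2 lower. The 2 lower were *Pax6* and *Nes*. *Nes*, the most abundant of the list, went from 510 and 475 CPM in WT to 319 and 278 CPM in KO and weighed most in the sum. The 6 higher were *Nkx6-1*, *Nkx6-2*, *Nkx2-2*, *Nkx2-9*, *Irx3* and *Sox1*. The part of floor plate cells and ventral progenitors in the fall of *Ntn1* was not tested. Of the Slits, which the floor plate also makes, *Slit2* rose and *Slit1* and *Slit3* were not called.

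*Ntn3* rose (log2 fold change 0.57, edgeR adjusted p = 0.00398), but its annotated exons are shared with *Tbc1d24* on the same strand and with *BC028777* on the other, so its counts are uncertain. Its call was lost without WT replicate 1 (adjusted p = 0.0611). *Ntn4* was not called. *Ntn5* had 0 counts in all 4 libraries, and 3 counts, the limit that a count of 0 allows, came to 0.124 to 0.201 CPM (counting error only). Among the netrin receptors, *Dcc*, which mediates attraction, was at 119.8 and 119 CPM in WT and at 136 and 128 CPM in KO and was not called (log2 fold change 0.15, edgeR adjusted p = 0.171). *Unc5c*, a repulsive netrin receptor, was the 1 receptor of this group that fell. It was at 51.6 and 54.9 CPM in WT and at 40.4 and 31.4 CPM in KO (log2 fold change -0.56, SE 0.11, edgeR adjusted p = 0.000544). Its exons overlap *Gm15688* on the other strand, with the same limit on strand as for *Plxna1*. *Unc5a*, *Unc5b* and *Unc5d* were not called, and the sum over *Dcc* and the 4 Unc5 genes was 21.9 and 21.0 CPM per kb in WT and 22.7 and 22.1 CPM per kb in KO.

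**Figure D4:**
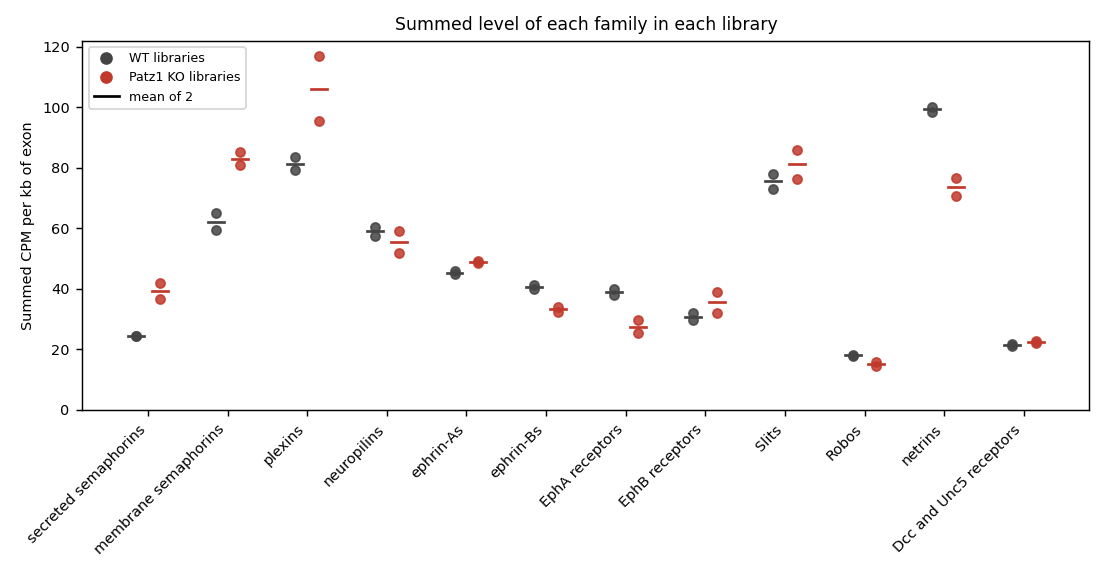
The summed CPM per kb of exon of each of the 12 families is shown for each library, with a line at the mean of the 2 libraries of a group. Secreted semaphorins, membrane semaphorins and plexins lie higher in *Patz1* KO (ratios 1.60, 1.33 and 1.30), and EphA receptors and netrins lie lower (0.703 and 0.743).

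By role, 12 of 34 tested ligands rose (35.3%) and 5 fell (14.7%), and 6 of 32 tested receptors rose (18.8%) and 7 fell (21.9%), where 24.0% of all genes rose and 23.4% fell. The receptor shares were near those of all genes. In the semaphorin system 9 of 20 semaphorins rose and 2 fell, 2 of 8 plexins rose and 0 fell, and 1 neuropilin rose and 1 fell. Whether the shares differ between roles or families was not tested. Family sums are weighted to the abundant genes, and the netrin sum of 100.2 and 98.3 CPM per kb in WT and 76.7 and 70.8 CPM per kb in KO was nearly all *Ntn1*. Neuron markers, which include genes of axons, summed to 5332 to 5717 CPM in WT and 8391 to 8981 CPM in KO, and 7 of 12 were higher and 2 lower. *Tubb3*, *Nefl* and *Dcx*, all higher, weighed most in the sum. Those lower were *Nefm* (log2 fold change -2.29) and *Snap25* (-0.29), so the neurofilament genes *Nefl* (1.33) and *Nefm* moved in opposite directions. MN markers summed to 941 to 994 CPM in WT and 1238 to 1352 CPM in KO, with 9 of 13 higher and 2 lower. The 9 higher were *Mnx1*, *Isl2*, *Lhx3*, *Lhx4*, *Chat*, *Slc18a3*, *Slc5a7*, *Prph* and *Ret*. The 2 lower were *Foxp1* (log2 fold change -1.05) and *Aldh1a2* (-1.21), so the rise did not extend to every MN marker. All 7 cycling markers were lower, and their sum went from 1962 to 2069 CPM in WT to 1014 to 1029 CPM in KO. Markers of primitive endoderm summed to 1354 to 1519 CPM in WT and 344 to 371 CPM in KO, with 14 of 16 tested lower and 0 higher. *Col4a1*, *Lama1*, *Sparc*, *Col4a2* and *Lamb1* weighed most in this sum, and which cells made these transcripts was not tested. *Col4a1* alone went from 477 and 560 CPM in WT to 52.4 and 57.9 CPM in KO. *Gata6* (mean 5.57 CPM in WT and 0.502 CPM in KO) and *Sox17* (2.79 and 0.486 CPM) were lower but added little. *Afp* and *Sox7* were not called. Glial markers summed to 504 to 530 CPM in WT and 848 to 914 CPM in KO, with 4 of 6 tested higher and 0 lower, and the defining marker *Gfap* had at most 1 count in any library. *Fabp7* made up most of this sum, at 461 and 430 CPM in WT and at 670 and 754 CPM in KO. Pluripotency markers were low throughout, at 9.80 to 12.7 CPM in WT and 6.31 to 8.34 CPM in KO, and 2 of 5 tested were lower and 0 higher. The part of any of these cell types in the members' changes was not tested.

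The 82 other guidance genes tested, which comprise further receptors and ligands, kinases and cytoskeletal effectors, were counted in the same fit. Of these 38 rose, 13 fell and 31 were not called, where 24.0% of all genes rose and 23.4% fell. Their median log2 fold change was 0.24, against -0.0014 for all genes tested. The list was chosen with earlier results of these data known, and it shares *Ret* with the MN markers. Its shares and median therefore describe these genes only, and no test of the list was run. The largest rises were those of *Flrt1*, of a family of adhesion molecules that bind Unc5 receptors, *Ngef*, the EphA-linked exchange factor ephexin, and *Rnd1*, a GTPase that binds plexins. *Flrt1* went from 15 and 14 counts in the WT libraries to 121 and 79 (log2 fold change 2.36, edgeR adjusted p = 4.67e-06). For *Ngef* the counts were 3 and 12 in WT and 61 and 32 in KO (log2 fold change 2.19, edgeR adjusted p = 0.000806). *Rnd1* was at 106 and 100 WT counts against 607 and 470 KO counts (log2 fold change 1.98, edgeR adjusted p = 5.25e-09). The largest falls were those of *Dock1*, a Rac activator downstream of Dcc (log2 fold change -1.30, edgeR adjusted p = 1.53e-08), *Ntng1*, a membrane-anchored netrin relative (-0.82), and *Lrig3*, a leucine-rich repeat protein (-0.82). *Neo1*, the Dcc relative that binds netrins and repulsive guidance molecules, fell by 0.28 (edgeR adjusted p = 0.0147). Its other ligands *Rgma* and *Rgmb* rose by 0.42 and 0.45, and *Draxin*, a repellent that binds Dcc, was not called (edgeR adjusted p = 0.589). Without WT replicate 2, the list gave 25 higher and 5 lower.

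Among the libraries left out in turn, KO replicate 1, the deepest, moved the number of members that fell the most. Without it more members fell than with all libraries, and *Epha6* and *Nrp2* lost their calls. Newly called lower were *Ephb1*, *Ephb4*, *Plxnb1*, *Plxnc1*, *Plxnd1*, *Sema3a*, *Sema3f*, *Sema3g*, *Sema6a* and *Slit1*, and *Unc5a* was newly higher. *Plxnc1* was lower without KO replicate 1 (log2 fold change -0.40) and higher without KO replicate 2 (0.33), so no direction can be given for it. Without KO replicate 2, more members were higher than with all libraries. *Dcc*, *Epha5*, *Plxna3*, *Plxnb2*, *Plxnc1* and *Unc5d* were newly higher, *Epha1* was newly lower and *Nrp1* lost its call. Each of these fits without a KO library also called more of all genes tested, in both directions. The KO libraries differed from each other more than the WT libraries did, with a mean chi-square per gene between replicates of 22.9 in KO and 10.3 in WT. KO replicate 1 was above KO replicate 2 in 53 of the 66 members (80.3%), against 52.5% of all genes tested.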

How the data were processed

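Total RNA was sequenced after ribosomal depletion with a strand-specific kit, in 2 WT and 2 *Patz1* KO libraries. The deposited values are raw counts per gene symbol, which the authors made on mm10. The submitters' processing notes name TopHat2 2.1.1, Bowtie2 2.3.1, featureCounts 1.6.2 and DESeq2, and the annotation and the strand setting are not given in the sources used here. Replicates were separate differentiations according to the study's methods, and what else they shared is not stated.

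From the counts, genes with at least 10 counts in at least 2 libraries were kept (14394 of 23420), library sizes were scaled by TMM, and *Patz1* KO was set against WT in edgeR's quasi-likelihood test (edgeR 4.0.16, limma 3.58.1, R 4.3.3) with Benjamini-Hochberg adjustment over all genes kept. A gene was called at an adjusted p below 0.05. Standard errors were derived from the log2 fold change and the F value of its test. Levels per kb divide CPM by the union of annotated exons (GENCODE M21, GRCm38), matched by symbol for all 69 members. Promoter windows came from RefSeq on GRCm38.p6. The script was tested on simulated counts.

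The members and lists were chosen with earlier results of these data known. By rule, values in every library were given for called members with an absolute log2 fold change of at least 1 and for the member with the highest level per kb in each family. Of the downstream list the rule named the 3 largest rises and falls among called genes, *Neo1*, *Rgma*, *Rgmb* and *Draxin*. The library values of the 12 falls and of other members were added after their values were seen. The alternatives were DESeq2 size factors, library size alone, TMM without 3 abundant noncoding RNAs, other filters, DESeq2's Wald test (DESeq2 1.42.0), a replicate block, a limit of 1 on the log2 fold change and each library left out. These 3 RNAs (*Rn45s*, *Rpph1* and *Rmrp*) took 6.33 to 6.55% of counts in WT and 6.81 and 9.65% in KO. Totals of 14769104 to 23881522 counts set the precision, and the biological coefficient of variation over all genes was 7.71%.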

Additional observations from a re-analysis of the deposited data

How the results depend on the processing

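With an absolute log2 fold change of at least 1 as a further condition, 9 members were higher and 0 lower, against 821 and 1019 of all genes and 6 and 1 of the downstream list. Leaving out 1 library at a time gave 12 to 24 members higher and 9 to 22 lower, 2367 to 3974 of all genes higher and 2203 to 3808 lower, and 25 to 43 downstream genes higher and 5 to 16 lower. A fit with 1 library in a group assumes that it varies like the other group. In the replicate block the same 30 members were called, with 18 higher and 12 lower. The numbers pair the libraries by label only, since the deviations of same-numbered libraries correlated at 0.005. The other scalings and filters and DESeq2's Wald test gave 27 to 30 called members. Library size alone lost *Nrp2* and gave a log2 ratio of 0.078 for the ephrin-A sum, against 0.11. The fit without a filter lost *Nrp1* and gained *Sema4a*, that with 10 counts in all libraries left out *Epha6*, and the Wald test lost *Epha6*, *Epha8* and *Sema4b*. Of 790 single-gene comparisons with an alternative, 715 kept direction and side of the threshold, 24 lost the call, 18 gained it with the same sign and 33 changed sign, among them *Plxnc1* without KO replicate 1, which also gained a call.

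Changes of sign were seen in 18 members, none of them called with all libraries and TMM, and the cause was not tested. *Plxnb1*, *Plxnb2*, *Plxnc1*, *Slit1* and *Unc5d* among them were called in a fit that left out 1 KO library. With library size alone *Efnb3* was at -0.0037 and *Unc5b* at -0.022 (log2). *Plxna2* was at 0.00099 under TMM without the noncoding RNAs and at 0.017 without a filter, and *Robo1* at 0.0051 without a filter. Under the replicate block *Plxnc1* was at -0.011 and *Unc5b* at -0.00054, and in the Wald test *Unc5b* was at -0.00042. Leaving out 1 library moved *Efnb3* from -0.023 to 0.070, *Epha10* from -0.10 to 0.46, *Ephb2* from -0.15 to 0.061, *Ntn4* from -0.21 to 0.31, *Plxna2* from -0.12 to 0.11, *Plxnb1* from -0.33 to 0.0078, *Plxnb2* from -0.067 to 0.24, *Plxnc1* from -0.40 to 0.33, *Robo1* from -0.098 to 0.062, *Robo3* from -0.42 to 0.015, *Sema3d* from -0.19 to 0.067, *Sema3e* from -0.49 to 0.081, *Sema4c* from -0.066 to 0.027, *Sema6d* from -0.028 to 0.21, *Slit1* from -0.43 to 0.059, *Slit3* from -0.076 to 0.15, *Unc5b* from -0.14 to 0.17 and *Unc5d* from -0.16 to 0.40.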

Other observations

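Members were longer than other genes, with a median of 6.93 kb of exon against 4.46 kb for all genes tested with an exon length. KO replicate 1 was above KO replicate 2 in 66.2% of the 3334 genes at least as long as the members' median, and in 80.3% of the members. In WT, replicate 1 was above replicate 2 in 41 of the 66 members (62.1%), against 49.8% of all genes tested.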
